A study of Homo sapiens with 3 samples.

Results

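KSR2 encodes kinase suppressor of Ras 2, and the loops listed at its gene body are described here as they stand in the authors' deposited list of chromatin loops in HCT116 cells. The gene was taken by its RefSeq body on the GRCh38.p14 assembly, which hg38 names, at chr12:117453012-117968990, a length of 516 kb on the minus strand. A loop was counted when either of its ends, read as the 5 kb inward from the listed position, overlapped that body. This gave 335 loops of 279618 with a class word in the list, and of 14318 on chromosome 12. KSR2 is 1 of 9909 protein-coding genes with a listed loop end. It was selected on its number of loops in the class gained, so the number and share of gained loops are given as a description with no test.

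Hi-C ligates and counts pairs of genomic sites that lie close together in crosslinked nuclei. It was run on 1 library each of an ORC2 deletion clone made with CRISPR/Cas9, of ORC2 rescue cells selected as a clone after ORC2 with both untranslated regions was supplied from the vector pLHCX, and of the wild-type line. All 3 are HCT116, a human colorectal carcinoma line, and all lack p53, the wild-type line included. The origin recognition complex, of which ORC2 is a part, binds the sites where DNA replication can start, and the study's design text asks which chromosome structures depend on it. The loop list names no sample, so whether a loop was gained in deletion, rescue or wild-type cells is not known, and the classes carry no direction with respect to ORC2. The list gives the class words conserved gain, conserved lost and not conserved, written here as gained, lost and not conserved. All class words below are those of the authors' deposited table, and a loop that was not conserved is not taken to be unchanged. With no strength, depth or replicate value per loop, no error between cultures could be computed. Intervals are 95% Wilson intervals unless named otherwise. Where a count of 0 is said to allow a share, that limit is 3 loops divided by the number of listed loops, and not the Wilson limit. Intervals and limits cover only the error of counting, and loops next to each other are not independent.

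KSR2 and its paralogue KSR1 are scaffold proteins of the Ras pathway. They hold RAF, MEK and ERK kinases together, so that the signal passes from an active Ras protein through the cascade. KSR2 is known mainly from the brain, it interacts with the energy sensor AMPK, and loss of its function is linked to obesity in mice and people. The gene is long and has close neighbours on both sides. Past its 3′ end lie NOS1, which encodes neuronal nitric oxide synthase, and FBXO21, which encodes a substrate receptor of an SCF ubiquitin ligase. Upstream of its start lie RFC5, which encodes a subunit of the clamp loader of DNA replication, and WSB2, which encodes a protein with WD repeats and a SOCS box.

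Contacts join DNA that was cut with DpnII, whose site is GATC and reads the same on both strands. The promoters of FBXO21 and RFC5 are shown because loop ends of KSR2 cover the start sites of both genes, and because each holds 1 such site. Promoters of KSR2, FBXO21, NOS1, RFC5 and WSB2 were taken from RefSeq on GRCh38.p14 (for WSB2, the outermost listed) as 250 bases before to 50 after the start. For NOS1 the start used, at 117309410, lies inside the gene body, which reaches to 117361626. Of these 5 promoters, 2 held a GATC, as did 41.7% of all 35116 promoters in the table. The 30 bases around each site follow, 5′ to 3′ along the gene's strand, with the DpnII site in capitals.
FBXO21, minus strand, chr12:117190539-117190568: ggatgggcggagcGATCtcaggactcgccc
RFC5, plus strand, chr12:118016468-118016497: gctttggccttgaGATCttaatatgtaatg
The FBXO21 start site was covered by 6 KSR2 loops, of which 2 were gained. The RFC5 start site was covered by 7, of which 0 were gained. No KSR2 loop end covered the start site of KSR2 itself.

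Of the 335 loops at KSR2 in the authors' deposited table, 46 were gained and 289 were not conserved. The gained share was 13.7% (10.5 to 17.8%), against 1.78% on chromosome 12 without these loops and 1.96% of listed loops in the genome. The locus held 2.34% of the listed loops of chromosome 12 and 15.6% of the gained ones. No loop at KSR2 was lost. A count of 0 in 335 loops allows a lost share of up to 0.896%. The genome-wide lost share of 0.196% lies below that limit, so lost loops at the usual share were not detectable at this number of loops.

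Most loops left the gene, and nearly all shared a single stretch inside it. There were 34 loops with both ends in KSR2, or 10.1% of the total, and 301 with 1 end outside. When ends within 10 kb of each other were joined, all ends fell into 8 blocks, of which 5 lay in KSR2 or across its 3′ edge. A block of 104 kb, at chr12:117796703-117900225, took part in 305 of the 335 loops (91.0%) and in 41 of the 46 gained ones. It covers 20.1% of the gene body, between 68.8 and 172 kb downstream of the start site, and is called the inner block below. The annotation places LOC105370011, a long non-coding RNA gene on the plus strand, opposite to KSR2, within this block at chr12:117832766-117843778. Ends over LOC105370011 belonged to 118 loops, 17 of them gained. The nearest block upstream of KSR2 began 20.6 kb from the start site, so the start lay in the gap between both blocks.

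**Figure D1:**
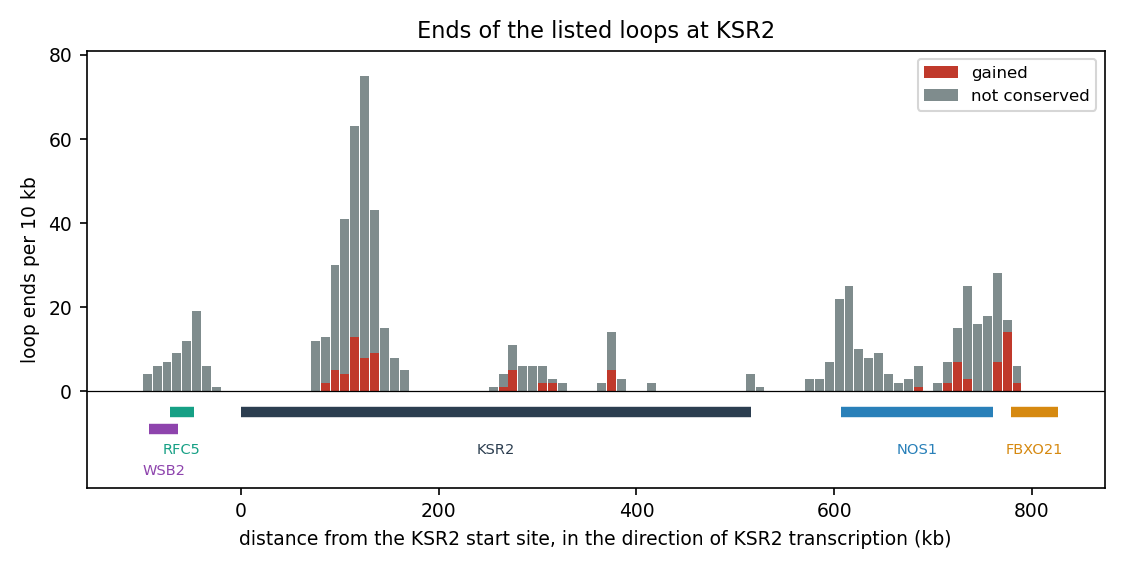
Number of loop ends per 10 kb (vertical axis) by distance from the KSR2 start site in the direction of KSR2 transcription (horizontal axis, kb), with gained loops in red stacked below not conserved loops in grey and gene bodies as bars under the axis. The highest columns stand in the inner block, 68.8 to 172 kb into KSR2, and red columns occur in KSR2 and over NOS1 and FBXO21 but not over RFC5 and WSB2.

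The loops ran in 3 directions, and the gained class was counted in each. Loops to lower coordinates, past the 3′ end of KSR2, numbered 237, of which 36 were gained (15.2%, 11.2 to 20.3%). Loops within the gene numbered 34, with 10 gained (29.4%, 16.8 to 46.2%). Loops to higher coordinates, past the start site, numbered 64, and 0 of them were gained, which allows a share of up to 4.69% (Wilson upper limit 5.66%). The interval for the upstream loops therefore did not overlap those of the downstream and intragenic loops. The genome share of 1.96% lies below the upstream limit, so gained loops at the usual share were not detectable in these 64 loops. The upstream loops ran for 114 to 203 kb. At 100 to 200 kb the gained share was 0.454% on the rest of chromosome 12 and 1.14% in the genome. The 3 sets were compared after the classes were seen, on the loops by which KSR2 was selected. Adjacent loops are not independent, and the 64 upstream loops form a single group when joined within 10 kb. The intervals therefore do not measure the spread between independent loops, and the comparison is a description and not a test.

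**Figure D2:**
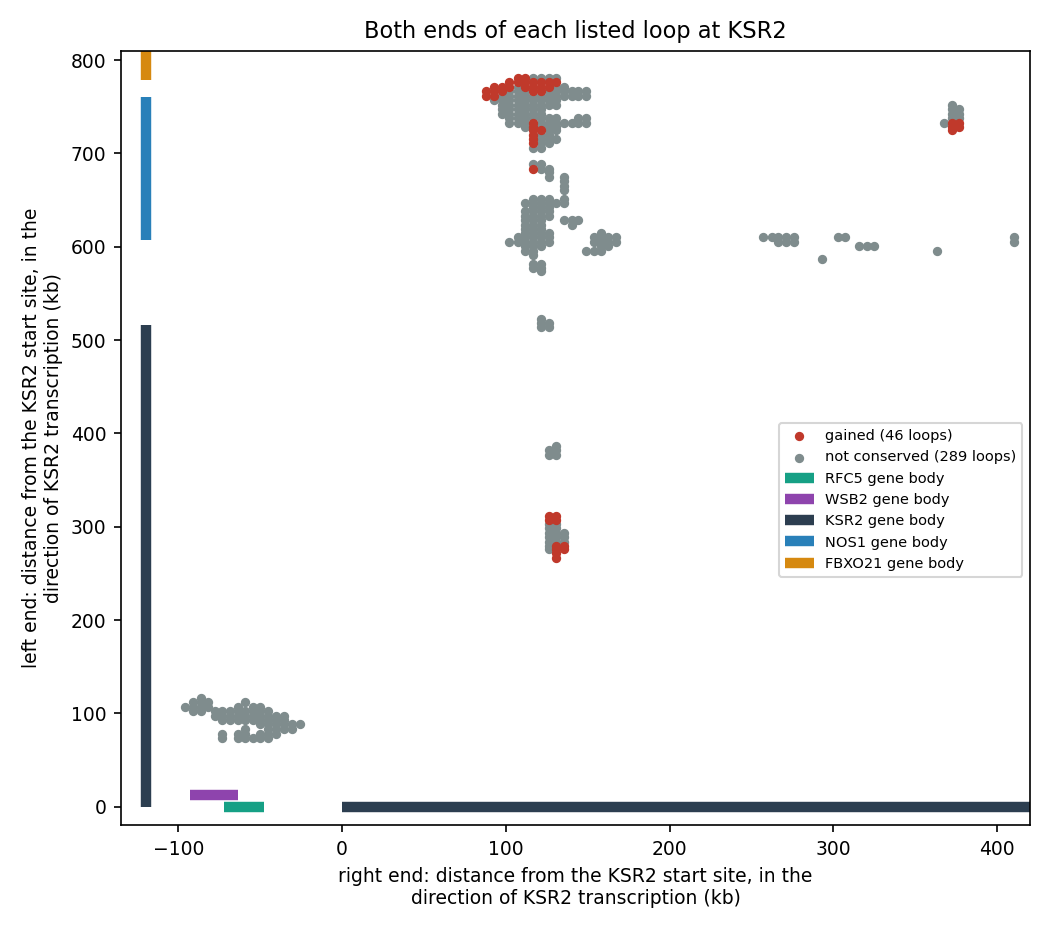
Position of the right end (horizontal axis) and the left end (vertical axis) of each of the 335 loops, both as distance from the KSR2 start site in the direction of KSR2 transcription (kb), with 46 gained loops in red, 289 not conserved loops in grey and gene bodies as bars along the axes. Most points line up in a column over the inner block, with red points at the top opposite FBXO21 and NOS1 and near 300 kb inside KSR2, and none in the group opposite RFC5 and WSB2.

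Downstream, the partner block nearest FBXO21 carried 35 of the 36 gained loops that left the gene. This block, at chr12:117187833-117267752, reaches from the start of FBXO21 across the space between the genes into the 3′ part of NOS1. It made 121 loops with the inner block, of which 30 were gained (24.8%, 18.0 to 33.2%). The next block, at chr12:117280630-117400006, covers most of the remaining body of NOS1 and part of the space towards KSR2. It made 85 loops with the inner block, and 1 of them was gained (1.18%, 0.208 to 6.37%). These neighbouring blocks thus gave intervals that did not overlap, although both face the same stretch of KSR2. The genome share of 1.96% lies within the interval of the second block. The blocks were compared after the classes were seen, on the loops by which KSR2 was selected. Adjacent loops are not independent, so the comparison is a description and not a test.

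Seen by gene, gained loops reached NOS1, FBXO21 and the gap between them. The far end lay in NOS1 in 164 listed loops, 15 of them gained (9.15%, 5.62 to 14.5%). It lay in FBXO21 in 6 loops, 2 of them gained. It overlapped no protein-coding gene in 86 loops, 19 of them gained. All 6 listed loops of FBXO21 and 164 of the 174 at NOS1 had their other end in KSR2, as did every gained loop of either gene. Upstream, the far end lay in RFC5 in 33 loops and in WSB2, whose body overlaps that of RFC5, in 26. It lay in VSIG10, an immunoglobulin domain protein gene, in 1, and 0 were gained at each gene. These counts allow up to 9.09% for RFC5 and 11.5% for WSB2, above the genome share of 1.96%. All listed loops of RFC5, WSB2 and VSIG10 also had their other end in KSR2.

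**Figure D3:**
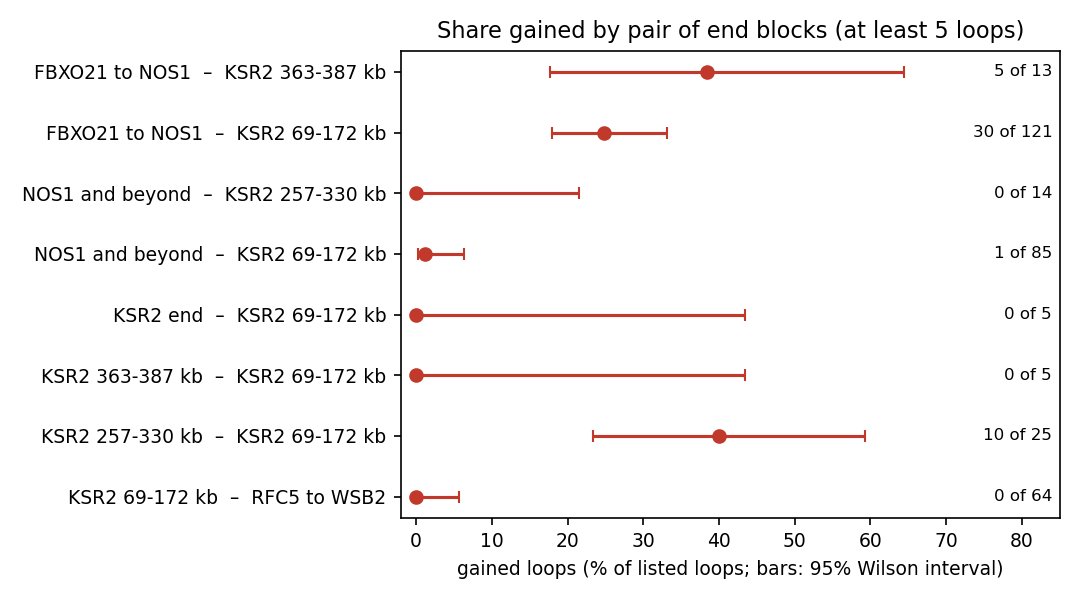
Percent of listed loops that were gained for each pair of end blocks with at least 5 loops, with 95% Wilson intervals, the counts at the right and blocks inside KSR2 named by their distance from the start site. The pairs with the block from FBXO21 to NOS1 and the pair 257 to 330 kb with 69 to 172 kb inside KSR2 stand at 24.8 to 40.0%, and 4 of the other 5 pairs at 0%.

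The gained loops formed 6 groups in which both ends lay within 10 kb of a neighbour's. The largest held 23 gained loops of 645 to 679 kb, from chr12:117187833-117212367 to chr12:117833407-117880909, and these were 23 of the 42 listed loops in that rectangle of ends. The listed left end at 117192680, 776 kb from the KSR2 start, had 7 loops, and all 7 were gained. Among loops to the inner block, the 5 left ends of the largest group had 51 loops, 23 of them gained (45.1%, 32.3 to 58.6%). The left ends that follow, from 117212019 to 117231357 at the 3′ end of NOS1, had 38 loops with 0 gained, which allows up to 7.89% (Wilson upper limit 9.18%). The left ends from 117236193 to 117258043, further into NOS1, had 30 loops with 7 gained (23.3%, 11.8 to 40.9%). These stretches were drawn from the gained groups themselves, so the 0 between them and the shares beside it describe where the groups lie and nothing more.

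Both right ends with most gained loops recurred in 3 of these groups each. The listed right end at 117852129, 117 kb downstream of the start, belonged to 35 loops, of which 10 were gained. Its gained partners ran from the gap beside FBXO21 through NOS1 as far as 117285421. The right end at 117838406 belonged to 27 loops, of which 7 were gained, in the largest group and in both groups inside the gene. All 7 gained loops of the group inside NOS1 ended at 117852129 or at the neighbouring position 117847619.

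A separate group of 5 gained loops did not use the inner block. They linked NOS1, at chr12:117236193-117249308, with the block 363 to 387 kb into KSR2, and ran for 351 to 360 kb. The 8 other loops between these blocks were not conserved and were 361 to 380 kb long. Each gained loop here was thus shorter than each loop that was not conserved. The gained share between these blocks was 38.5% (17.7 to 64.5%, 5 of 13 loops).

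Inside the gene, gained loops joined the inner block with the block 257 to 330 kb from the start. Of 25 such loops, 10 were gained (40.0%, 23.4 to 59.3%). They fell into a group of 4 loops of 177 to 185 kb and a group of 6 loops of 136 to 149 kb, and in both rectangles every listed loop was gained. These rectangles were drawn around the gained loops themselves, so this only describes where the groups lie. The 15 not conserved loops, of 148 to 176 kb, lay between the 2 groups in length, apart from the overlap at 148 to 149 kb. The other intragenic loops ran from the inner block to the block 363 to 387 kb from the start, with 5 loops, and to the 3′ edge of the gene, and none was gained. With so few loops their upper limits stay high, at 43.4% (Wilson) for 0 of 5.

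By median, the gained loops at KSR2 were longer than the not conserved ones. Gained lengths ran from 136 to 679 kb with a median of 630 kb (567 to 655 kb, binomial interval of the median). The not conserved loops ran from 114 to 664 kb with a median of 488 kb (456 to 507 kb). Of the 46 gained loops, 23 belonged to the largest group, of 645 to 679 kb. Groups of 6, 4 and 5 gained loops, of 136 to 149, 177 to 185 and 351 to 360 kb, lay below the not conserved median. The higher gained median therefore rests largely on the largest group. Its loops are not independent, so the binomial interval does not measure their spread. Gained loops were also the longer ones elsewhere, with medians of 397 kb for gained and 269 kb for not conserved loops on the rest of chromosome 12, and of 299.6 and 233 kb in the genome. In all, 13 gained loops were longer than the longest not conserved loop of the gene. Among loops to lower coordinates alone the medians were 650 and 534 kb, so the difference was also present without the short loops to RFC5 and WSB2. That set still holds the largest group. Inside the gene the order was the other way, with medians of 147 kb for gained and 170 kb for not conserved loops.

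Set against loops of like length elsewhere, KSR2 had a larger gained share in some length classes only. At 600 to 700 kb, 28 of 101 loops at KSR2 were gained (27.7%, 19.9 to 37.1%), against 2.10% (1.18 to 3.73%) on the rest of chromosome 12 and 3.59% in the genome. At 100 to 200 kb the share was 11.4% (6.29 to 19.7%) at KSR2, against 0.454% (0.275 to 0.748%) on the rest of chromosome 12. At 200 to 400 kb it was 12.5% (5.46 to 26.1%), against 1.95% (1.62 to 2.35%). At 500 to 600 kb the values were 4.76% (1.63 to 13.1%) at KSR2 and 4.73% (3.44 to 6.48%) on the rest of the chromosome. At 400 to 500 kb 0 of 43 loops at KSR2 were gained (upper limit 8.20%). That limit lies above the interval of the rest of the chromosome (1.03 to 2.17%) and above the genome share of 2.28% at this length. With 43 loops, 0 gained therefore cannot be told from the share elsewhere. KSR2 was selected on its gained loops, so these shares are not evidence apart from the choice of the gene. The 5 gained loops at 200 to 400 kb are a single group, and the 10 at 100 to 200 kb are the groups inside the gene. All 28 at 600 to 700 kb join the block nearest FBXO21 with the inner block. The shares by length thus restate where the gained groups lie, and the intervals treat adjacent loops as independent.

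**Figure D4:**
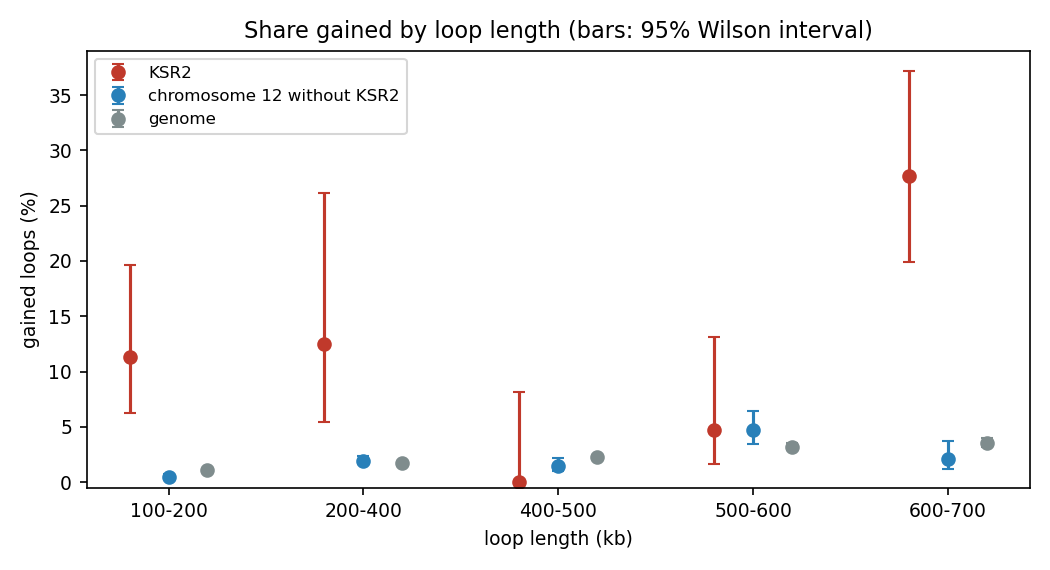
Percent of listed loops that were gained, by loop length, for KSR2 (red), chromosome 12 without KSR2 loops (blue) and the genome (grey), with 95% Wilson intervals. The KSR2 interval lies above both others at 100 to 200, 200 to 400 and 600 to 700 kb, and at 400 to 500 and 500 to 600 kb it includes the other values. The intervals treat adjacent loops as independent, although the gained loops at KSR2 lie in groups.

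Few loops lay near the edges of the gene. In 2 loops, of 391 and 396 kb and both not conserved, an end crossed the 3′ edge of KSR2. Outside the gene the nearest ends of loops that were not counted lay 84.7 kb away, in NOS1 and the space beside it, and the nearest 10 such loops were all not conserved. No listed loop spanned the whole gene with both ends outside it.

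Among protein-coding genes KSR2 was at place 5 by gained loops. The 4 genes with more were ATP8A2, a phospholipid flippase gene (176 of 272 listed loops gained), TMEM132E (126 of 328), USP10 (70 of 134) and RYK (51 of 81). Below KSR2 followed SYNE1 (45 of 164), ESR1 (44 of 167), STXBP4, a syntaxin-binding protein gene (39 of 183), SHQ1, an assembly factor gene of box H/ACA RNA particles (33 of 81), and NOL10 (32 of 79). A gained end was found at 12.7% of the 9909 genes with a listed end. By share gained, KSR2 was at place 10 of 641 genes with at least 100 listed loops, of which 417 had none gained. With at least 50 listed loops it was at place 55 of 1810.

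Long genes have more room for loop ends, so KSR2 was also set beside genes of 0.5 to 2 times its length. Of 164 such genes with at least 100 listed loops, 80 had no gained loop, the median share was 0.274%, and 5 had a larger share than KSR2. The 5 nearest in share were LAMA3, a laminin chain gene (12 of 104 loops, 11.5%), ARL15, an Arf-like GTPase gene (17 of 102, 16.7%), PLCE1, a phospholipase C gene (12 of 140, 8.57%), ELMO1, a regulator of RAC activation (21 of 256, 8.20%), and ACYP2, an acylphosphatase gene (9 of 115, 7.83%). None of these 5 had a lost loop. They lie on 5 other chromosomes, and likeness here is only the difference in percent gained.

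**Figure D5:**
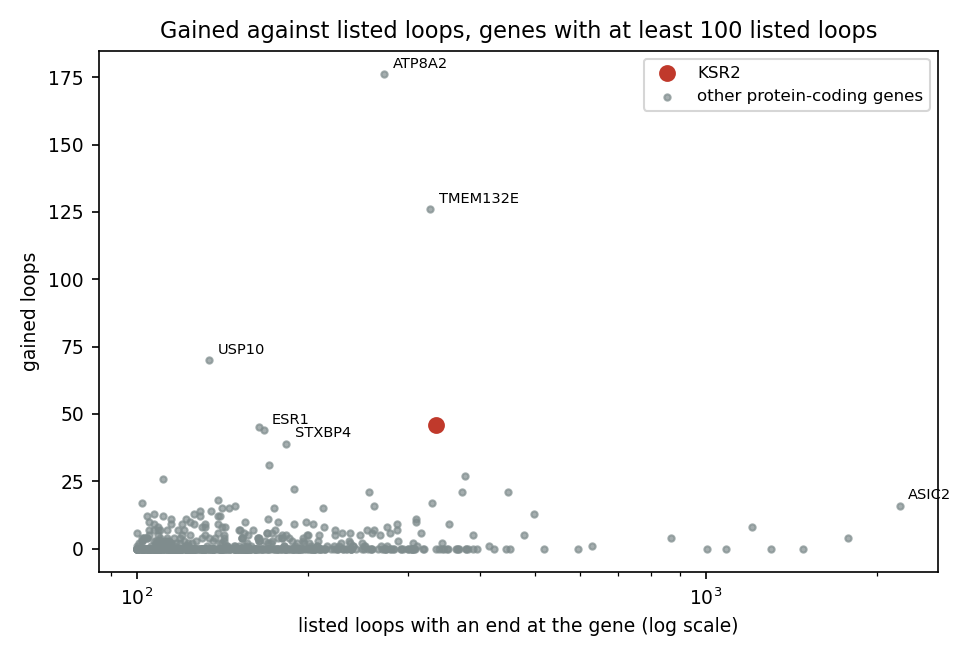
Gained loops (vertical axis) against listed loops (horizontal axis, log scale) for the 641 protein-coding genes with at least 100 listed loops, with KSR2 in red. KSR2 has 46 gained of 335 listed loops, below ATP8A2, TMEM132E and USP10, and 417 genes lie at 0.

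A list of 57 genes besides KSR2 held the Ras to ERK cascade, its regulators, and subunit genes of AMPK and calcineurin. Of these 57, 26 had a listed loop end. A gained end was found at 5 of the 26 (19.2%), against 12.7% of all genes with a listed end, and a lost end at 0, against 1.85%. The median share gained was 0% over the list and over all genes, and no test was made. KSR1, the paralogue of KSR2, had 6 gained of 173 listed loops (3.47%). GRB2, the adaptor that links receptors to the Ras activator SOS, had 10 of 16. YWHAZ, a 14-3-3 protein gene, had 12 of 88, PRKAG2, an AMPK subunit gene, had 5 of 57, and NF1, which encodes a Ras GTPase-activating protein, had 2 of 53. The kinase genes BRAF (8 listed loops), MAP2K1 (2) and MAPK3 (4) had none gained. With so few loops, 0 gained cannot be told from the genome share of 1.96%. Members with more listed loops also had none gained, among them DUSP4 (93 listed loops), IQGAP1 (54) and PPP1CB (36). No limit was computed for these. PEBP1, which encodes an inhibitor of RAF kinase and lies 167 kb upstream of KSR2, had no listed loop end.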

How the data were processed

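The authors deposited a loop list with a left position, a right position and a class word per loop. Its name places it in hg38. Bowtie, hg19 and hg38 stand in the submitters' processing notes without roles. How loops were called, thresholded and normalised, and from which samples, is not given in the sources used for this text, so depth is unknown. Whether contacts were corrected for coverage is likewise unstated. Of 279669 rows, 49 without a class word and 2 repeats were left out. A compartment table was also supplied, and its 6 value columns match no sample label, so compartment scores over KSR2 were not analysed here.

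Loops were counted at RefSeq gene bodies, and start sites and strands came from the RefSeq promoter table (Python 3.11.15, pandas 2.3.3, SciPy 1.17.1). Exons and introns were not used. Counting and joining were tested on simulated data. KSR2, the gene lists and the rules were chosen with earlier results of these data known. Named genes were partners of KSR2 loops, pathway genes with a gained end, the 5 genes most like KSR2 in share gained and up to 5 above and below it in gained loops. BRAF, MAP2K1, MAPK3, DUSP4, IQGAP1, PPP1CB and PEBP1 were added after their values were seen.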

Additional observations from a re-analysis of the deposited data

How the results depend on the processing

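Under 36 alternatives, 31 values stayed within 1.5 times the count, within the Wilson interval of a share or within the binomial interval of a median. Reading ends as the listed position only or as 10 kb, widening the gene by 5 kb on each side and requiring at least 100 kb left 335 loops with 46 gained and 0 lost. The shortest KSR2 loop was 114 kb long, and the nearest end that was not counted lay 84.7 kb away. The length floor, the wider gene and the 10 kb ends therefore could not change these counts, which are among the 31 values. Joining at 5 or 20 kb also gave 6 gained groups. Without the largest gained group, 23 gained loops and a share of 7.37% were left, which follows from its removal. The median length was not computed without that group. By share gained, KSR2 came to place 55 of 1810 genes with at least 50 listed loops, where more genes were ranked, and to place 6 of 172 genes at least 0.5 times its length, where fewer were. The gained share of loops with a listed position in the flanks, which include KSR2 loops that reach there, was 8.04% within 1 Mb and 6.02% within 2 Mb, and the cause was not tested. Without the KSR2 loops it was 3.28% within 1 Mb (8 of 244). The compartment alternative was not run because its columns match no sample label. No paired analysis was possible because the loop list holds no column per sample and no group has more than 1 library.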

Other observations

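Within 1 Mb of KSR2, the loops that did not touch the gene numbered 244, with 8 gained and 3 lost. All 8 gained and all 3 lost loops had a listed position on the side past the 3′ end of KSR2, where 178 such loops were listed, and 0 of 66 on the upstream side were gained or lost. The long non-coding RNA gene LINC03088, 755 kb from KSR2, had 71 listed loops, of which 5 were gained and 2 lost. LOC124903028, a long non-coding RNA gene that overlaps LINC03088, had 3 lost of 15. These are the 3 lost loops of the flank, and the 2 at LINC03088 are among them. In the genome 1.96% of listed loops were gained and 0.196% lost. Of the loops on that side with a listed position in the flank, KSR2 loops included, 44 of 417 were gained. The 44 include the 36 gained KSR2 loops to lower coordinates, which were among the loops the gene was selected on. On the upstream side 0 of 130 were gained, which allows up to 2.31%, above the genome share of 1.96%.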
